A study of Mus musculus with 24 samples.

Results

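The 100 genes described here are those whose RNA, in sorted Sertoli cells of the fetal mouse testis, stood highest in the middle of the period studied, at E12.5 and E13.5 (E, embryonic day), against both the earlier E11.5 and the later E15.5. They were chosen by a score on the deposited expression table, which gives TPM, a level per length of transcript scaled to the same total in every library. The score is the log2 of the smaller of the XY E12.5 and E13.5 means plus 1 TPM over the larger of the XY E11.5 and E15.5 means plus 1 TPM. Of the 32040 gene symbols in the table, 23928 could be chosen after predicted genes and pseudogenes were left out by name, and 2141 of these had a score above 0. The 100 members had scores from 2.21 for Mir1306 down to 0.76, with a median of 0.94, and 43 were at 1 or more. The last inside were Plcb2, Scara5 and Mapk8ip1, all at 0.76, and the next outside were Obp2a at 0.75, Nppc at 0.74 and Bst2 at 0.73, so that the limit falls within a smooth run of scores. Since the XY libraries chose the members, their course in XY and their differences between XX and XY are described without a test.

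RNA was measured in 24 bulk libraries, 3 for each sex at each of these 4 stages. The XY libraries hold cells sorted as Sertoli cells from gonads of the SOX9-IRES-GFP mouse line, in which the fluorophore reports the Sox9 locus. The XX libraries hold cells sorted as pre-granulosa cells from the line with the Tg(Enh8-mCherry) transgene, whose element Enh8 the labels do not describe. Sex, mouse line and fluorophore changed together, so their parts in any XX and XY difference cannot be told apart. About 40000 sorted cells went into each sample, and nothing in the labels says whether the 3 libraries of a group came from separate litters, so p-values measure the spread between these samples, which may be technical. XX E13.5 replicate 1 has E13.5 in its title and E12.5 in another field, and was kept at E13.5.

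Sertoli cells are the supporting cells of the testis. In the fetal gonad they differentiate under SRY and SOX9, gather around the germ cells, and lay down with the neighbouring myoid cells a basement membrane that bounds the testis cords. They then act as the signalling centre of the testis, through anti-Müllerian hormone, desert hedgehog and other secreted factors. SOX9 is also the master regulator of cartilage, where it drives the genes of type II, IX and XI collagen together with SOX5 and SOX6.

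Markers of the sorted cell types differed between the sexes. Summed over 18 Sertoli genes (among them Sox9, Amh and Dhh), the XY libraries held 2512 to 4010 TPM at E11.5 and 10860 to 12640 TPM at the later 3 stages, while no XX library held more than 1535 TPM. Foxl2, a defining gene of pre-granulosa cells, was at no more than 0.14 TPM in any XY library and at 1.35 to 19.6 TPM in the XX libraries. The sum of the 14 pre-granulosa markers went against this order at E11.5, at 5019 to 5897 TPM in XY and 2711 to 3214 TPM in XX. Most of it was 1 gene, Kctd14, at 4730 to 5533 TPM in XY and 1795 to 2270 TPM in XX at that stage. XY E11.5 libraries stood apart from later XY libraries in interstitial markers (451 to 760 TPM against 34.1 to 90.2 TPM) and in the pre-granulosa sum (at most 3637 TPM later). They also stood apart in steroidogenic markers (271 to 335 TPM against 54.2 to 97.6 TPM) and in glia and neural crest markers (184 to 193 TPM against 59.6 to 107 TPM). At XY E15.5, cell cycle genes summed to 1556 to 1575 TPM (516 to 1146 TPM at E12.5 and E13.5), germ cell markers to 70.7 to 132 TPM (7.31 to 17.3 TPM) and erythroid markers to 184 to 280 TPM (25.2 to 71.4 TPM). Within XX E11.5, replicates 1 to 3 in order had Foxl2 at 1.35, 15.8 and 2.32 TPM, Irx3 at 9.39, 82.8 and 3.74 TPM and Fst at 128, 401 and 101 TPM. Replicate 2 was thus the highest in these pre-granulosa markers, whereas Kctd14, Lhx9 and Bmp2 were highest in replicate 1. XX E11.5 libraries stood apart from the other XX libraries, with 7615 to 69314 TPM of erythroid and 192 to 511 TPM of immune markers against at most 3500 and 84.5 TPM. The part of these cells and of cycling in the members' course was not tested, and in bulk samples fewer cells of a type and less RNA per cell cannot be told apart. Total counts per library ranged from 11275251 to 37256881, deepest in XY E11.5.

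By role, the members formed groups assigned by hand after the members were known. There were 17 genes of the extracellular matrix and its remodelling, 19 of lipid, vitamin and small-molecule metabolism, 15 of receptors and signalling, 9 of junctions, channels and transporters, and 9 of proteases, protease inhibitors and other secreted proteins. A further 8 belonged to the cytoskeleton and vesicle traffic, 8 were nuclear or cell cycle genes, 6 had other roles, and 9 were microRNA genes. In RefSeq, 98 members matched by symbol and 1 (Scart2) by an older name, and Itih6 was not matched. They lay on 19 chromosomes, with at most 15 on 1 of them (chromosome 7). Within 200 kb of each other lay 4 pairs: Apoc3 and Apoa4, Cst8 and Cst11, Ephx2 and Ptk2b (28734 bases apart on chromosome 14), and Mir6338 and Smtnl2 (298 bases apart on chromosome 11).

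The members Col2a1, Col9a1, Col9a2 and Col9a3 encode the chains of the type II and IX collagen fibrils of cartilage. The start regions of Col9a1 and Col9a2 are shown because both genes were high at the same stages and the RefSeq table holds them. Each runs from 250 bases before a transcript start to 50 bases after it, 5′ to 3′ on the gene's own strand, from RefSeq on GRCm38.p6. Capitals mark a match to a motif searched on both strands. For the SOX family, which includes SOX9, the letters searched were AACAAT. For the zinc-finger family named after its GATA core, they were AGATAA. For the nuclear receptor NR5A1, which acts in the gonad, they were AAGGTCA. The E-box of helix-loop-helix factors was searched as CACGTG. The upstream Col9a1 start lies at chr1:24177360-24177659 on the plus strand, the downstream Col9a1 start at chr1:24194953-24195252 on the plus strand, and the Col9a2 start at chr4:121039316-121039615 on the plus strand.
Col9a1, upstream start: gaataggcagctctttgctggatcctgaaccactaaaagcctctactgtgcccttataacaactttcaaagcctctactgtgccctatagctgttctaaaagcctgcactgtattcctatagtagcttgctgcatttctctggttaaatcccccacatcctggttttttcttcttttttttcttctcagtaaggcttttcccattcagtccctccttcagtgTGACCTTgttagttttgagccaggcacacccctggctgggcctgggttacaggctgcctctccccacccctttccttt
Col9a1, downstream start: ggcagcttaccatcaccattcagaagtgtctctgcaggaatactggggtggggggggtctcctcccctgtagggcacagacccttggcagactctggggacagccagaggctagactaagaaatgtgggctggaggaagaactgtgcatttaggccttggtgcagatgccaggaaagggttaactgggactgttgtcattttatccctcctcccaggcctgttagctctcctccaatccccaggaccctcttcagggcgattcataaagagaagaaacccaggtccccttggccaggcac
Col9a2: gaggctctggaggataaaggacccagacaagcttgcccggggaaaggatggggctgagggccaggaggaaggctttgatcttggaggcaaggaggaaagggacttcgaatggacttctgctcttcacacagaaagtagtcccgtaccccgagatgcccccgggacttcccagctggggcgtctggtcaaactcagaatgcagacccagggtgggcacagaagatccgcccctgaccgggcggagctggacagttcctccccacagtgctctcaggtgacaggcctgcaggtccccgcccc

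Only the upstream Col9a1 region held a match, TGACCTT, which is AAGGTCA on the other strand and begins 28 bases before the transcript start. The upstream start of Col9a1 makes the long chain known from cartilage and the downstream start the short chain known from the eye, and the deposited values are summed per gene, so they do not separate the starts. Across the 82 start regions found for 69 members, AACAAT was present in 9.76% (10.7% of all 32851 regions in the table), AGATAA in 4.88% (11.2%), AAGGTCA in 7.32% (4.72%) and CACGTG in 8.54% (7.15%). GC content had a median of 59.3% in the members' regions and 52.7% in all regions. A match is a string of letters in the window and not a binding site.

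Collagens made up 6 of the 17 matrix genes. Col2a1, the chain of type II collagen, was at 7.18, 11.2 and 9.64 TPM in the 3 XY E11.5 libraries, then 146, 164 and 136 TPM (E12.5), 42.5, 34.3 and 44.0 TPM (E13.5) and 2.47, 2.37 and 2.01 TPM (E15.5). The E12.5 mean (149 ± 13.9 TPM, SD, n = 3) was 15.9 times that at E11.5 and 65.1 times that at E15.5. Every E12.5 library lay above every E13.5 library, and the E15.5 libraries were below the E11.5 ones.

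Col9a1 followed the same order, with 8.06, 12.2 and 25.3 TPM at XY E11.5, 103, 111 and 108 TPM at E12.5, 55.8, 53.1 and 56.9 TPM at E13.5 and 4.77, 4.64 and 3.77 TPM at E15.5. Its fellow chain Col9a2 was at 46.0, 56.7 and 26.4 TPM at E11.5, 313, 323 and 292 TPM at E12.5, 212, 165 and 222 TPM at E13.5 and 57.1, 53.4 and 53.1 TPM at E15.5. The third chain, Col9a3, was higher and stayed up longer. It was at 63.1, 78.6 and 36.6 TPM at E11.5, 1108, 1172 and 1068 TPM at E12.5, 1125, 796 and 1103 TPM at E13.5 and 507, 444 and 487 TPM at E15.5. Its E13.5 libraries overlapped those of E12.5, and at E15.5 its mean was still 8.06 times that at E11.5, whereas Col9a1 had returned to 0.289 times and Col9a2 to 1.27 times its E11.5 mean. At E15.5 Col9a3 was thus far above the other chains of the same collagen.

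Col18a1 encodes type XVIII collagen of basement membranes, the source of endostatin. It was at 273, 330 and 135 TPM at XY E11.5, 1759, 1720 and 1413 TPM at E12.5, 921, 744 and 1027 TPM at E13.5 and 498, 479 and 461 TPM at E15.5, so that the stages did not overlap. Col14a1, a fibril-associated collagen, was at 7.36, 7.04 and 9.70 TPM at E11.5, 136, 120 and 116 TPM at E12.5, 132, 137 and 148 TPM at E13.5 and 66.9, 63.2 and 58.6 TPM at E15.5. Unlike the cartilage collagens it was no lower at E13.5 than at E12.5 in the means (139 ± 8.14 and 124 ± 10.8 TPM). XY E11.5 replicate 3 was the lowest of its group in Col9a2, Col9a3 and Col18a1 and the highest in Col9a1 and Col14a1.

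**Figure D1:**
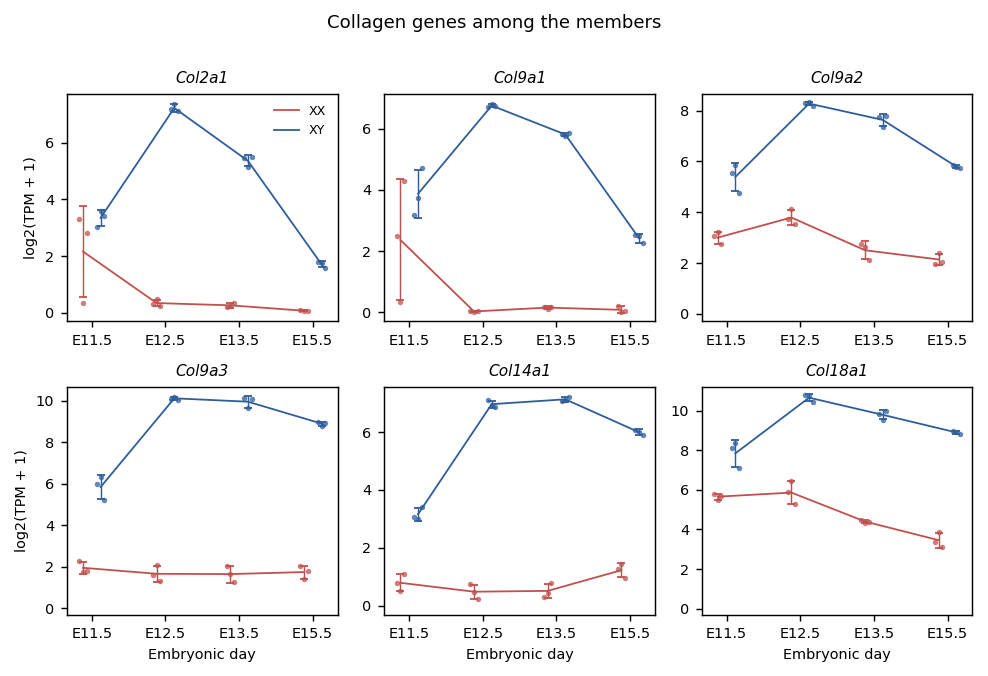
Collagen genes among the members, as log2(TPM + 1) against embryonic day, with 1 point per library and lines and bars for the mean and SD of 3 libraries (XX red, XY blue). In XY, Col2a1 and Col9a1 stand lower at E15.5 than at E11.5, whereas Col9a3 and Col14a1 stay well above their E11.5 level.

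Other matrix members ranged in XY E12.5 mean from 9.37 TPM for Cemip, of hyaluronan turnover, to 409 TPM for Mfge8, a secreted bridge for the uptake of dying cells. Itga11, a collagen-binding integrin, was at 24.5 ± 2.19 TPM at XY E12.5 and 12.2 ± 0.295 TPM at E13.5, against 1.65 ± 0.296 TPM at E11.5 and 3.35 ± 0.376 TPM at E15.5. Megf6 was at 28.7 ± 3.27 TPM at E12.5 and 8.91 ± 1.23 TPM at E13.5, and Srgn, the core protein of the proteoglycan serglycin, was at 37.6 ± 4.62 and 21.1 ± 0.523 TPM. The matrix proteases Adamts16, Adamts9 and Mmp15 had means of 177, 72.8 and 98.2 TPM at E12.5. Mmp15 ended at E15.5 at 0.503 times its E11.5 mean. Of the 17 matrix genes, 15 were higher at E12.5 than at E13.5, beside 72 of all 100 members. In all 17 the XY libraries lay above the XX libraries at both stages, as in 85 of the 100 members. Among all genes with a count, 17.5% did so at E12.5 and 26.4% at E13.5. The XY libraries chose the members, so this is a description.

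Secreted proteases and inhibitors included digestive enzymes of the pancreas. Ctrb1, a chymotrypsinogen, was at 9.15, 6.31 and 3.65 TPM at XY E11.5, 89.0, 97.9 and 109 TPM at E12.5, 97.7, 76.9 and 83.8 TPM at E13.5 and 16.2, 20.9 and 16.7 TPM at E15.5. Cela3b, an elastase, was at 11.0 ± 1.22 TPM at E12.5, 12.3 ± 2.27 TPM at E13.5 and no more than 2.83 TPM in any other XY library. Prss53, a serine protease, was at 28.3 ± 0.58 and 29.4 ± 0.956 TPM, against 3.27 ± 0.886 TPM at E11.5 and 8.75 ± 0.65 TPM at E15.5. These 3 genes were thus level between the middle stages and low on both sides.

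Cst8 and Cst11, cystatin genes of a cluster known for expression in the male reproductive tract, lay 27341 bases apart on chromosome 2 (chr2:148768618-148771497 for Cst11 and chr2:148798839-148805596 for Cst8 in RefSeq). Cst8 was at 333, 267 and 286 TPM at XY E11.5, 719, 704 and 726 TPM at E12.5, 489, 506 and 510 TPM at E13.5 and 243, 256 and 249 TPM at E15.5. Cst11 was lower, at 33.7, 31.4 and 32.2 TPM at E12.5 and 29.0, 30.2 and 30.3 TPM at E13.5, against 11.3 to 18.1 TPM in the other XY libraries. Cst8 is 1 of 2 members that also stood on the Sertoli marker list, with Erbb3, and it differed from most members in XX, as given further on.

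Among junction and channel genes, Gjb2, the gap junction protein connexin 26, had the largest difference of all members from E11.5 to E12.5, 5.45 on the log2(mean TPM + 1) scale. It was at 2.74, 1.98 and 1.53 TPM at XY E11.5, 137, 135 and 129 TPM at E12.5, 133, 127 and 136 TPM at E13.5 and 30.2, 31.1 and 27.5 TPM at E15.5. The middle stages overlapped, and their means were 64.3 and 63.4 times that of E11.5. No XX library held more than 0.52 TPM. Atp1b2, a beta subunit of the sodium pump, was 1 of the most abundant members, at 1834, 1571 and 1423 TPM at E12.5 and 1212, 1352 and 1352 TPM at E13.5 against 273 to 467 TPM at E11.5 and 742 to 759 TPM at E15.5. Atp2a3, a calcium pump of the endoplasmic reticulum, was short-lived: its XY means were 2.61, 21.5, 6.38 and 2.30 TPM in order of stage. Slc9a2, a sodium and proton exchanger, reached only 5.56 ± 0.673 TPM.

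Receptors and signalling genes were led in level by Ptk2b, a calcium-activated tyrosine kinase, at 187 and 185 TPM in the E12.5 and E13.5 means. Erbb3, a neuregulin receptor, was at 2.70, 2.77 and 1.98 TPM at XY E11.5, 26.2, 28.4 and 24.9 TPM at E12.5, 30.9, 27.0 and 31.9 TPM at E13.5 and 11.4, 10.4 and 8.88 TPM at E15.5. Erbb3 also marks neural crest and glia. The 12 genes of that list, Erbb3 included, summed to 184 to 193 TPM at XY E11.5 and 59.6 to 107 TPM later. Within the list, Foxd3 was at no more than 0.29 TPM in any XY library, and Dct was at 122 ± 5.24 TPM at XY E11.5. The part of such cells in the Erbb3 values was not tested. Scart2, of the scavenger receptor family, was at 12.48 ± 1.17 and 11.35 ± 0.49 TPM in the middle stages and at 2.27 ± 0.787 and 2.42 ± 1.01 TPM at E11.5 and E15.5. Plcb2, a phospholipase C, stayed above its E11.5 level, as Erbb3 did, at 66.6 ± 2.97 TPM at E15.5 against 15.0 ± 5.44 TPM at E11.5. By the means, 11 of the 15 genes of this group were higher at E15.5 than at E11.5. Igsf23 and Tspan32, both membrane proteins, were at 21.0 ± 1.36 and 83.0 ± 9.7 TPM at E12.5.

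In metabolism, Gstm7, a glutathione transferase, was at 391, 384 and 343 TPM at XY E11.5, 1041, 1080 and 1111 TPM at E12.5, 1096, 1088 and 1045 TPM at E13.5 and 442, 442 and 483 TPM at E15.5. The middle stages overlapped and lay apart from the outer stages, which were close to each other. Apoc3 and Apoa4 encode apolipoproteins of circulating lipoproteins and are neighbours on chromosome 9 (chr9:46233050-46235636 and chr9:46240844-46243458 in RefSeq), 5207 bases apart. Apoc3 was at 6.36, 7.38 and 6.34 TPM at E12.5 and 9.13, 4.61 and 7.36 TPM at E13.5, against at most 0.84 TPM at E11.5 and 1.28 to 2.57 TPM at E15.5. Apoa4 was at 2.53 to 3.41 TPM at E12.5 and 1.98 to 2.92 TPM at E13.5, against at most 0.34 TPM at E11.5 and 0.65 to 0.80 TPM at E15.5. The neighbours shared a course at low levels.

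Rdh7, a retinol dehydrogenase of the retinoid pathway, was at 7.16, 6.98 and 6.34 TPM at XY E12.5 and 4.19, 4.40 and 3.63 TPM at E13.5. It had 2.07 counts in 1 XX library and none in the others, and 2.06 counts in all at XY E11.5. Mt3, a metallothionein, was at 242 ± 19.3 and 240.2 ± 20.7 TPM in the middle stages and kept 140 ± 9.96 TPM at E15.5, against 22.8 ± 5.39 TPM at E11.5. Agmat, an agmatinase, and Cyp2s1, a cytochrome P450, were at 7.81 ± 0.868 and 50.9 ± 1.77 TPM at E12.5. Gmpr, of guanine nucleotide metabolism, was at 285 ± 82.8 TPM at E12.5 and 232 ± 9.87 TPM at E13.5.

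The remaining groups held both very abundant and rare genes. Bex2, a small protein of the brain-expressed X-linked family, was the highest member, at 1875, 1890 and 1888 TPM at XY E12.5 and 1990, 2007 and 1976 TPM at E13.5, against 698 to 874 TPM at E11.5 and 1031 to 1102 TPM at E15.5. Tpd52l1 was at 520 ± 8.56 and 427 ± 12.4 TPM in the middle stages. Trim55, known for its place in the muscle sarcomere, was at 7.05, 8.94 and 10.1 TPM at E12.5 and 5.01, 4.18 and 2.64 TPM at E13.5, and at no more than 0.49 TPM in the other XY libraries. Rprm, a cell cycle inhibitor downstream of p53, went against the general order, with 20.2, 27.0 and 27.6 TPM at E12.5 and 46.2, 45.8 and 50.1 TPM at E13.5. Nuclear members were few, and Eya1, a transcriptional co-activator with phosphatase activity, was at 7.56 and 7.51 TPM in the E12.5 and E13.5 means.

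The 9 microRNA genes, which include the highest score, rested on at most 5.73 counts in any XY E12.5 or E13.5 library. Polyadenylated RNA of this kind does not measure mature microRNAs, and they are not described further. With Defb45, a beta-defensin, they were also the 10 members whose XY E12.5 and E13.5 libraries were not all above the other 6 XY libraries. For the other 90 members these libraries did not overlap, a pattern found in 2.6% of the 24386 genes with a count, but it is nearly what the rule selects.

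**Figure D2:**
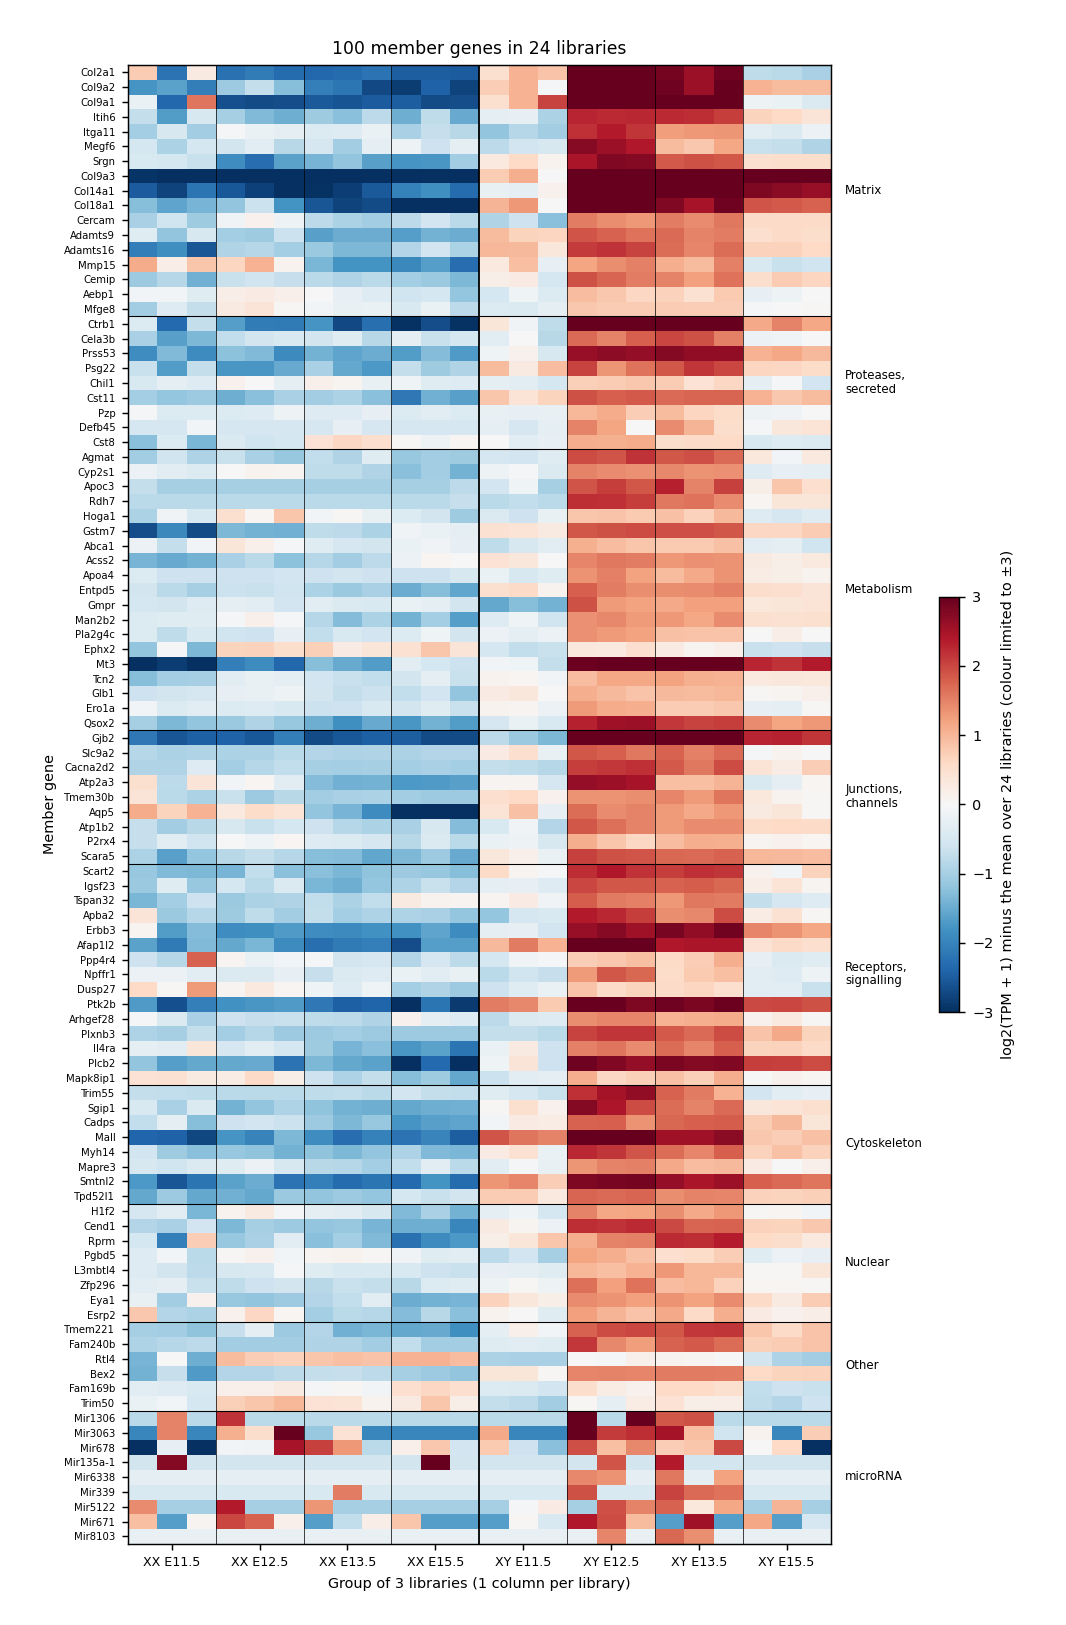
Each of the 100 members (rows, by role) in each of the 24 libraries (columns), as log2(TPM + 1) minus the gene's mean over the 24 libraries, with the colour limited to 3 in either direction. The XY E12.5 and E13.5 columns are the reddest for nearly all rows outside the microRNA genes, and Rtl4, Ephx2 and Trim50 are as high or higher in XX.

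The peak was not symmetric. On the log2(mean TPM + 1) scale, the members' median difference was 1.63 from E11.5 to E12.5 (range 0.77 to 5.45), -0.14 from E12.5 to E13.5 (-1.86 to 1.01) and -1.07 from E13.5 to E15.5 (-3.65 to -0.76). By their means, 72 members were higher at E12.5 and the other 28 at E13.5, and 77 differed by less than 0.5 between these stages. The 5 that were lower by more than 1 at E13.5 were Col2a1, Megf6, Atp2a3 and the microRNA genes Mir1306 and Mir3063. After the peak, 69 members stayed higher at E15.5 than they had been at E11.5, 26 were lower and 5, all microRNA genes, were at 0 at both stages. Col2a1 and Col9a1 lay at the low end of that difference, at -1.65 and -1.59, and Gjb2 at the high end, at 3.31.

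**Figure D3:**
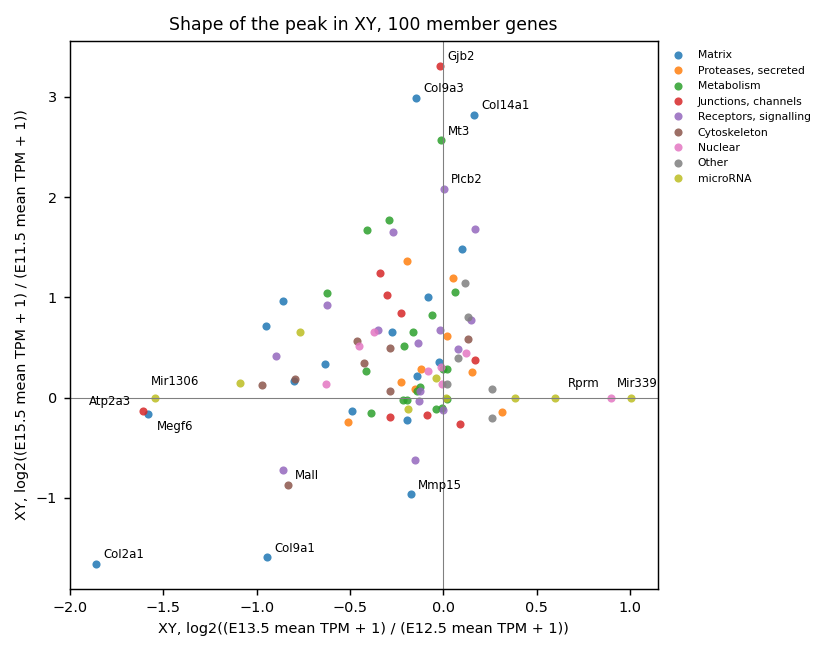
Each point is 1 of the 100 members, coloured by role, with the XY difference from E12.5 to E13.5 across and from E11.5 to E15.5 upwards, both as log2 of mean TPM + 1. Col2a1 and Col9a1 stand alone at the lower left, and Gjb2, Col9a3 and Col14a1 at the top.

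Together the members made up 3822 ± 550 TPM in XY at E11.5, 13857 ± 589 TPM at E12.5, 11736 ± 435 TPM at E13.5 and 5809 ± 30.2 TPM at E15.5. In XX their sum was 1777 ± 187, 2394 ± 13.4, 2288 ± 122 and 2083 ± 197 TPM at the same stages. In XY means, 61 members were at 10 TPM or more at both E12.5 and E13.5, 21 at 100 TPM or more and 4 at 1000 TPM or more. The 10 highest by their mean over both stages were Bex2 at 1938 TPM, Atp1b2 at 1457, Col18a1 at 1264, Gstm7 at 1077, Col9a3 at 1062, Cst8 at 609, Tpd52l1 at 474, Mfge8 at 405, Gmpr at 259 and Col9a2 at 255 TPM.

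Known Sertoli genes outside the set took several courses over the same libraries. Dhh, the desert hedgehog ligand, was also highest in the middle of the period, at 54.5 ± 16.6 TPM at XY E11.5, 799 ± 63.2 TPM at E12.5, 770 ± 44.3 TPM at E13.5 and 528 ± 15.9 TPM at E15.5. So was Cyp26b1, which breaks down retinoic acid, at 27.0 ± 6.25, 95.9 ± 5.6, 55.5 ± 7.46 and 33.6 ± 1.13 TPM in the same order. Aard was highest at E13.5, at 41.9 ± 12.7, 130 ± 9.85, 275 ± 68.6 and 93.0 ± 10.5 TPM. These 3 scored below the limit for members.

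Other Sertoli genes did not fall back after the middle stages or were high from the start. Amh was at 26.9 ± 12.3 TPM at XY E11.5, 3418 ± 43.6 TPM at E12.5, 4374 ± 447 TPM at E13.5 and 3945 ± 111 TPM at E15.5. Sox8 was at 6.84 ± 2.67, 51.2 ± 8.31, 70.9 ± 6.93 and 86.8 ± 5.12 TPM. Sox9 itself was already at 684 ± 179 TPM at E11.5 and was at 705 ± 74.3, 541 ± 20.7 and 413 ± 7.29 TPM afterwards.

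With 4 of its 19 genes among the members, the cartilage matrix list was followed further in its other genes. The rule left these genes over after taking those with the highest scores, so their XY levels are a description. Mia, a secreted protein of cartilage, was also highest in the middle, at 2.49 ± 0.576, 29.1 ± 2.97, 47.1 ± 4.3 and 17.6 ± 1.67 TPM in order of stage. Cnmd, a cartilage-derived inhibitor of vessel growth, was at 2.32 ± 0.635, 35.9 ± 11.7, 100.2 ± 8.35 and 74.2 ± 3.26 TPM, and so stayed up at E15.5. The type XI collagen genes were low, and neither rose as far as Mia or Cnmd. Col11a1 was at 4.74 ± 0.668, 5.05 ± 0.300, 1.60 ± 0.352 and 1.07 ± 0.0866 TPM. Col11a2 was at 1.02 ± 0.465, 2.23 ± 0.564, 0.683 ± 0.211 and 0.167 ± 0.182 TPM. Its E12.5 libraries (1.82 to 2.87 TPM) lay above those of E11.5 (0.56 to 1.49 TPM). Acan, the large proteoglycan of cartilage, was at no more than 2.66 ± 0.39 TPM in any XY mean.

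Hapln1, the link protein of that proteoglycan, was at 9.45 ± 2.77 TPM at XY E11.5 and 0.987 ± 0.297 TPM at E12.5. The SOX9 partner Sox5 went from 96.1 ± 17.4 TPM at E11.5 to 60.5 ± 7.42, 28.3 ± 3.11 and 7.57 ± 1.0 TPM, and Sox6 from 52.4 ± 7.81 to 26.9 ± 5.06, 25.1 ± 1.19 and 27.6 ± 2.09 TPM. The mature cartilage genes Matn1, Comp and Ucma were at no more than 0.28 TPM in any XY library.

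**Figure D4:**
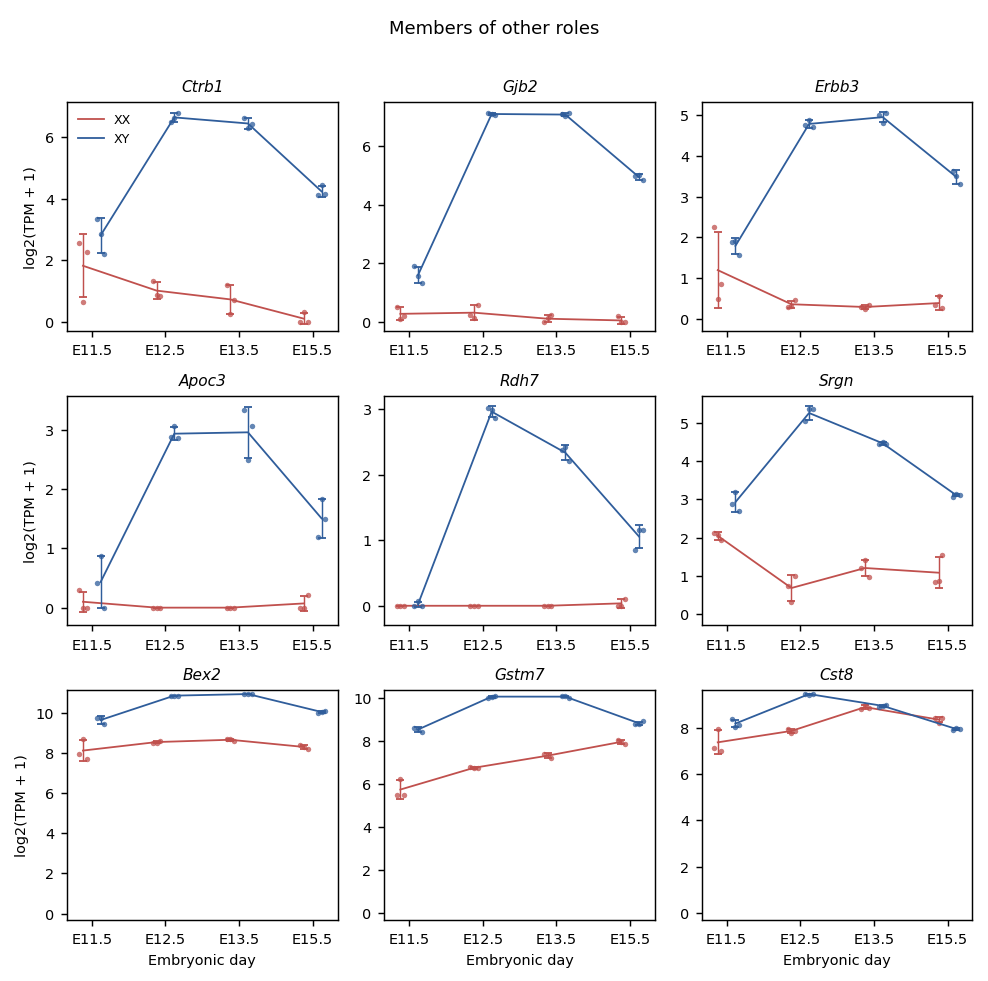
A selection of members of other roles, plotted as log2(TPM + 1) against embryonic day with points for libraries and the mean and SD of 3 (XX red, XY blue). Gjb2, Erbb3, Apoc3 and Rdh7 are near 0 in XX from E12.5 on, Gstm7 climbs steadily in XX, and Cst8 in XX meets the XY level at E13.5.

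Against XX, the members were mostly higher in XY from E12.5 on. All 3 XY libraries lay above all 3 XX libraries for 45 members at E11.5 (16.8% of all genes with a count). The number was 86 at E12.5 (17.5% of all), 88 at E13.5 (26.4% of all) and 77 by E15.5 (26.2% of all). The reverse held for 5 members at E11.5 (12.1% of all genes), 3 members at E12.5 (29.0%), 2 members at E13.5 (25.2%) and 8 members at E15.5 (25.8%). The median log2 ratio of XY over XX was 0.38, 2.25, 2.33 and 1.27 in order of stage. At both middle stages 85 members lay above XX, and 41 of these did not yet do so at E11.5. No share of all genes was computed for either of these, so they cannot be set against one. All counts in this comparison use the libraries that chose the members and are a description.

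The members that lay below XX at a stage were few. At E11.5 they were Npffr1, Dusp27, Gmpr, Trim50 and Mapk8ip1. At E15.5 they were Megf6, Tspan32, Abca1, Rtl4, Ephx2, Fam169b, Trim50 and Cst8. Those at a middle stage were Rtl4, Ephx2 and Trim50. Rtl4, a gene derived from a retrotransposon, was at 6.69 ± 0.612 TPM in XY and 12.04 ± 1.32 TPM in XX at E12.5, and Ephx2, a soluble epoxide hydrolase, at 18.3 ± 1.5 and 22.0 ± 1.33 TPM. Trim50 was the third at E12.5. Cst8 was above XX at E11.5 and E12.5 but at E13.5 its libraries overlapped (489 to 510 TPM in XY and 458 to 518 TPM in XX), and at E15.5 XX was higher (302 to 351 TPM against 243 to 256 TPM). Tspan32 likewise was above XX until E13.5 and below it at E15.5, at 17.7 ± 2.12 TPM in XY and 29.3 ± 2.13 TPM in XX.

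In XX, 26 members had means under 1 TPM at all 4 stages, and 17 had means of 10 TPM or more at all of them. The XX libraries took no part in the choice of members, so here changes were tested, with edgeR's quasi-likelihood test and Benjamini-Hochberg adjustment over all 16190 genes. It could be run for 90 members. Left out for too few counts were the microRNA genes and Defb45. Called members are those with an adjusted p under 0.05.

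The XX counterpart of the pattern is the mean of E12.5 and E13.5 against the mean of E11.5 and E15.5. By this contrast, 26 of the 90 members were higher in the middle of the course (16.8% of all genes tested) and 10 lower (15.2%), and 54 were not called. Their median log2 change was 0.25, against 0.00 over all genes tested. Applied to XX, the score that chose the members had a median of -0.29 in them (-0.21 over all genes with a count), 14 of them were above 0 (10.7% of all genes), and the top 100 of the same rule in XX shared only Itga11 and Mir678 with them, 2% of each list. Without XX E15.5 replicate 3, 17 members were called higher (2063 of 16477 genes tested) and 6 lower (1897 of 16477).

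**Figure D5:**
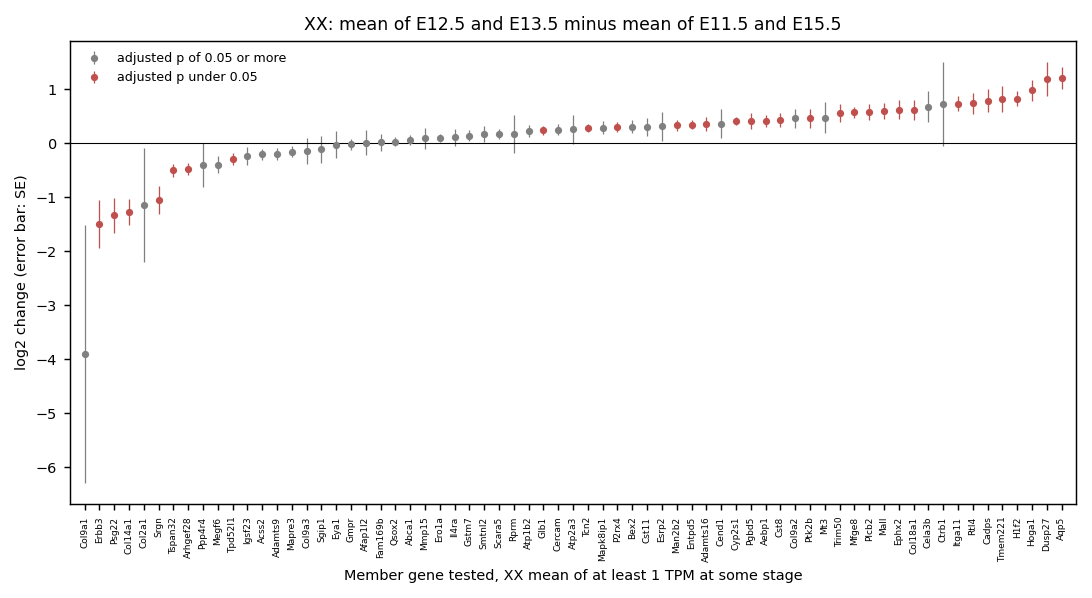
XX change in the middle of the course (log2, bars for SE) of the 67 members tested that had an XX mean of at least 1 TPM at some stage, in order of size, red where the adjusted p was under 0.05. Of those plotted, 25 were called higher and 7 lower, and the changes called higher are mostly under 1.

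Itga11 had the highest score in XX of the members outside the microRNA genes, 0.49. In XX it was at 1.66, 2.84 and 1.61 TPM at E11.5, 4.22, 3.66 and 3.49 TPM at E12.5, 3.03, 3.13 and 3.69 TPM at E13.5 and 1.76, 2.34 and 2.02 TPM at E15.5. The middle libraries did not overlap the outer ones, and the change was 0.74 (log2, SE 0.14, adjusted p 0.000464 in edgeR). H1f2, a linker histone, was higher by 0.83 (SE 0.14, adjusted p 0.000212 in edgeR), at 21.5 to 37.3 TPM in the middle and 10.7 to 23.7 TPM outside, where the ranges overlapped in 1 E11.5 library.

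Aqp5, a water channel, had the largest change called among members with a mean of at least 10 CPM (counts scaled to the library total) in the higher group, 1.20 (SE 0.21, adjusted p 0.000241 in edgeR), but not by a peak. It was at 27.2, 19.9 and 25.9 TPM in XX at E11.5, 15.0, 18.1 and 16.4 TPM at E12.5, 4.76, 4.03 and 2.52 TPM at E13.5 and 0.28, 0.66 and 0.38 TPM at E15.5. The level was lower at each stage, and the contrast is positive because the E15.5 level is so low on the log scale. Col18a1 was likewise higher by 0.62 (SE 0.19, adjusted p 0.0159 in edgeR) with no lasting peak, and its call was lost without XX E12.5 replicate 2 (0.45) or XX E15.5 replicate 3 (0.56). Rtl4 was higher by 0.74 (SE 0.20, adjusted p 0.00726 in edgeR), which came from its low E11.5 level, since it was still at 14.0 ± 0.592 TPM at E15.5.

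Among members lower in the middle of the XX course were Tspan32, by 0.50 (log2 change -0.50, SE 0.12, adjusted p 0.00463 in edgeR), and Arhgef28, a guanine nucleotide exchange factor, with -0.47 (SE 0.11, adjusted p 0.00304). Tpd52l1 was at -0.30 (SE 0.11, adjusted p 0.0423 in edgeR), and that call was lost in 11 of the alternative settings. In these 3 genes E15.5 was the highest stage, and in Tspan32 and Tpd52l1 E13.5 was no lower than E11.5. The XX means in order of stage were 12.8, 12.7, 14.4 and 29.3 TPM for Tspan32, 5.24, 4.41, 3.85 and 6.66 TPM for Arhgef28, and 59.3, 60.7, 69.9 and 103 TPM for Tpd52l1. Erbb3 was also called lower (-1.49, SE 0.44, adjusted p 0.0146 in edgeR), on XX E11.5 levels of 3.74, 0.40 and 0.82 TPM and at most 0.49 TPM later. Col14a1 (-1.27, SE 0.25) and Srgn (-1.05, SE 0.26) were called lower at levels of at most 3.38 TPM in any XX library.

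From XX E11.5 to E12.5, 22 members were called higher (16.7% of all genes tested) and 14 lower (17.3%), with a median log2 change of 0.12 in the members and 0.01 in all genes. On the TPM scale the split was 27 higher (3527 of 15147 genes tested) and 7 lower (1771 of 15147). Rtl4 rose by 1.69 (SE 0.29, adjusted p 0.000196 in edgeR), from 1.87, 6.51 and 1.72 TPM to 13.6, 11.4 and 11.2 TPM, and Ephx2 by 1.35 (SE 0.26), from 5.58, 13.2 and 4.80 TPM to 22.7, 22.9 and 20.5 TPM. In both genes XX E11.5 replicate 2 was the highest of its group. Adamts16 rose by 1.19 (SE 0.18), Gstm7 by 0.91 (SE 0.15) and Mfge8 by 0.83 (SE 0.14). The rule takes only genes that were higher at E12.5 than at E11.5 in XY, so a shared direction at this step carries no information.

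Among members with a mean of at least 10 CPM in the higher group, the largest falls at this step were those of Col2a1 and Col9a1. Col2a1 was at 9.04, 0.27 and 6.08 TPM in the XX E11.5 libraries and at 0.25, 0.39 and 0.19 TPM at E12.5, a log2 change of -4.19 (SE 0.69, adjusted p 0.00018 in edgeR). Col9a1 was at 4.59, 0.26 and 18.5 TPM at E11.5 and at 0.04, 0 and 0.02 TPM at E12.5 (adjusted p 0.000184 in edgeR). Its 3 XX E12.5 libraries held 3 counts in all against 710 at E11.5, a ratio per total count of 290 with a 95% exact interval of 98.7 to 1408 that covers counting error only. XX E11.5 replicates 1 and 3 hold these levels, and replicate 2 lay within the range of the E12.5 libraries in Col2a1. Of the 15 genes of the cartilage matrix list that were tested, members included, 3 were called higher and 6 lower at this step.

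XX E11.5 replicates 1 and 3 had Col1a1, an interstitial marker, at 105 and 478 TPM against 24.5 TPM in replicate 2. They had Foxl2 at 1.35 and 2.32 TPM against 15.8 TPM in replicate 2. The part of such differences between replicates in the collagen values was not tested. Without replicate 1 the changes were -3.50 for Col2a1 and -8.51 for Col9a1, and without replicate 3 they were -4.02 and -6.47. The number of members called lower was 8 without replicate 3 (2130 of 16526 genes tested) and 20 without replicate 2 (3748 of 16626). It was 9 without replicate 1 (2361 of 16525). It was also 9 without XX E12.5 replicate 1 (2406 of 16507) or replicate 3 (2543 of 16648). Aqp5 (-0.60, SE 0.21, adjusted p 0.0288) and Adamts9 (-0.48, SE 0.16, adjusted p 0.026) were also called lower in edgeR, and both calls were lost on the TPM scale.

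From XX E12.5 to E13.5, 7 members were called higher (14.2% of all genes tested) and 19 lower (17.4%), with a median of -0.15 against 0.00 for all genes. Mmp15, a membrane-bound matrix metalloprotease, fell by 2.14 on the log2 scale (SE 0.27, adjusted p 1.53e-05 in edgeR), from 58.4, 78.1 and 40.1 TPM to 13.9, 10 and 10.1 TPM. In XY the same step left it at 86.5, 99.5 and 109 TPM and then 80.9, 72.8 and 107 TPM. Aqp5 fell by 1.99 (SE 0.23), Col18a1 by 1.47 (SE 0.27), Col9a2 by 1.44 (SE 0.25) and Mapk8ip1, a scaffold of the JNK pathway, by 1.11 (SE 0.17). The matrix genes among these were Mmp15, Col18a1 and Col9a2.

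Cst8 rose at this step by 1.34 (SE 0.19, adjusted p 3.05e-05 in edgeR), from 250, 222 and 235 TPM to 458, 518 and 475 TPM in XX, while in XY its mean went from 716 to 502 TPM. Gstm7 rose by 0.73 (SE 0.15). Tpd52l1 (0.44, SE 0.16, adjusted p 0.0356) and Acss2, an acetyl-CoA synthetase (0.40, SE 0.14, adjusted p 0.0301), were called higher in edgeR, and both calls were lost on the TPM scale. On that scale the median of all genes was -0.14 at this step. There, 3 members were called higher (993 of 15147 genes tested) and 27 lower (4266 of 15147). In edgeR, the number called higher was 4 without XX E12.5 replicate 2 (1796 of 16655 genes) or XX E13.5 replicate 1 (2011 of 16648). It was also 4 without XX E13.5 replicate 2 (1797 of 16502).

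From XX E13.5 to E15.5, 11 members were called higher (12.8% of all genes tested) and 19 lower (12.8%), with a median of -0.25 against 0 for all genes. Tspan32 rose by 0.96 (SE 0.17), Acss2 by 0.87 (SE 0.13), Arhgef28 by 0.76 (SE 0.16), Gstm7 by 0.62 (SE 0.15) and Tpd52l1 by 0.55 (SE 0.15). Plcb2 fell by 1.53 (SE 0.22, adjusted p 5.29e-05 in edgeR), Col18a1 by 1.03 (SE 0.27), H1f2 by 0.94 (SE 0.20), Mapk8ip1 by 0.72 (SE 0.17) and Itga11 by 0.70 (SE 0.19). The Col18a1 call was lost without XX E15.5 replicate 3 (-0.91), and the Itga11 call without XX E13.5 replicate 3 (-0.61) or XX E15.5 replicate 1 (-0.63). The number called higher was 7 without XX E13.5 replicate 2 (1428 of 16502 genes tested) or XX E13.5 replicate 3 (1516 of 16641). Without XX E15.5 replicate 3 it was also 7 (1328 of 16477), and the number called lower was 12 (1212 of 16477).

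Gstm7 was called higher at each of the 3 steps in XX. Its libraries were at 44.8, 74.5 and 44.0 TPM at E11.5, 111, 106 and 105 TPM at E12.5, 168, 165 and 147 TPM at E13.5 and 266, 249 and 235 TPM at E15.5. No XX library of 1 stage overlapped those of another. Mt3 was also called higher at each step, at 0.19, 3 and 0.22 TPM at E11.5 and 22.1, 19.1 and 17.5 TPM at E15.5. So was Acss2, with XX means of 9.34, 12.9, 16.9 and 30.9 CPM in order of stage, though its call from E12.5 to E13.5 was lost on the TPM scale. These genes thus rose through E15.5 in XX. In XY they were lower at E15.5 than at E13.5, as the rule requires of all members.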

How the data were processed

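RNA was measured in 24 libraries of sorted cells from polyadenylated RNA with a low-input kit that amplifies cDNA and no described molecular identifiers, per the labels' protocols. The authors deposited estimated counts per gene, of which 17.5% were not whole and which were rounded here, and TPM values, which sum to 0.939 to 0.962 of the full scale per library. The build was mm10, per the submitters' processing notes, and the aligner, counter, annotation and use of strand are not given in the sources used here. Overlapping genes and near-identical copies such as glutathione transferases and cystatins may therefore share reads.

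Levels are TPM as mean ± SD of 3 libraries. Tests used edgeR 4.0.16 and limma 3.58.1 in R 4.3.3: filterByExpr (16190 genes), TMM, 1 mean for each of 8 groups, robust quasi-likelihood fit with 16 residual degrees of freedom (common coefficient of variation 17.4%). The contrast of the middle XX stages was tested beside the 3 steps. The code was tested on simulated data. Genes called had an adjusted p under 0.05, and every adjusted p given is from edgeR.

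The members and gene lists were chosen with earlier results of these data known. Members named were the 20 of largest score, the 10 of highest level, those on a marker list, up to 5 called per direction in each XX contrast at 10 CPM or more by TMM, and the 3 lowest. Other members were named after their values were seen. Lists of marker genes for 15 cell types or pathways were summed. Alternatives were DESeq2 1.42.0, its size factors, other filters, limma-trend on TPM, the replicate number as a block, XX libraries alone, a fold limit and leaving out each library. Promoters and gene positions are from RefSeq on GRCm38.p6, the assembly of mm10.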

Additional observations from a re-analysis of the deposited data

How the results depend on the processing

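The 3 steps between stages are numbered in order of time. The direction of every XX change named by the rule of at least 10 CPM held under all alternatives run. Of the recomputed values, 55 lost their call and 701 kept it. The XX changes of Erbb3, Col14a1, Srgn and Mt3, named at lower levels, were not followed through the alternatives. Those of Acss2 and Col9a2 at the first step, which that rule did not name, were not followed either. With an absolute log2 change of at least 1 in addition, the members called higher and lower were 3 and 6 for the middle of the XX course, 9 and 11 at the first step, 3 and 8 at the second, and 2 and 9 at the third. Calls at this limit were not counted over all genes. With only the XX libraries fitted and no such limit, the members called were 15 and 5, 14 and 7, 4 and 11, and 5 and 11. Over all 15286 genes of that fit the calls were 1788 and 1866, 1512 and 2164, 1939 and 1994, and 1327 and 1511. With limma-trend on log2(TPM + 1), 7 were lower at the first step and 3 higher at the second, with log2(TPM + 0.1) 8 and 4, and without a filter 6 and 2, beside 6 lower in the middle of the course. Over all genes the calls in these settings were 1771 and 993 of 15147, 1672 and 950 of 15147, and 2215 and 934 of 24356. Those lower in the middle of the course without a filter were 2172 of 24356. Without the count filter in edgeR, 4 members were higher at the second step (1864 of 24301 genes). On log2(TPM + 1) the split at the first step was 27 higher and 7 lower, against 22 and 14 in edgeR. Leaving out 1 library at a time gave 17 to 34 higher and 6 to 10 lower for the middle of the course, 16 to 26 and 8 to 20 at the first step, 4 to 9 and 13 to 22 at the second, and 7 to 12 and 12 to 28 at the third. Over all 16477 to 16655 genes tested, those fits gave 2063 to 3938 higher and 1897 to 3115 lower for the middle of the course. The steps in order gave 1799 to 3692 and 2130 to 3748, 1741 to 2687 and 1980 to 3599, and 1328 to 2395 and 1212 to 3034. The replicate block gave 26 and 10, 22 and 13, 6 and 20, and 11 and 16 members. Over all 16190 genes it gave 2622 and 2251, 2621 and 2554, 2146 and 2710, and 1946 and 1966. Deviations of libraries with the same replicate number had a mean correlation of 0.009, so the numbers are not known to pair samples. The rule kept 64 of the 100 members with a pseudocount of 10 TPM, 67 with 0.1 TPM, 72 on CPM and 91 to 97 without 1 XY library, and 31 members in all 17 settings. Depth limits the microRNA genes, which hold under 10 counts in every library.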
